A study of Homo sapiens with 8 samples.

Results

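The 10 keratin genes KRT7, KRT8, KRT18, KRT19, KRT17, KRT15, KRT10, KRT80, KRT81 and KRT86, which serve simple, basal and hair-type epithelia, were followed through 8 RNA-seq libraries of the human lung adenocarcinoma cell line PC9 and its brain metastatic subline PC9-BrM3. They were found by symbol, 10 of the 63677 genes counted. There were 4 groups, with 2 libraries in each. PC9 parental and PC9-BrM3 cells were untransduced and were cultured for 48 h. The shNTC and shHSF1 groups were PC9-BrM3 cells carrying a doxycycline-inducible vector (Tet-pLKO) with a non-target hairpin or with 1 hairpin (clone 7480) against HSF1, the master transcription factor of the heat shock response. Both were selected in puromycin for 5 days and given doxycycline at 500 ng/mL for 48 h. The file headers name lane 7 for all untransduced libraries and lane 1 for all transduced libraries. Lane, vector, puromycin and doxycycline thus cannot be told apart between these sets. Tests were therefore made within each set only: PC9-BrM3 against PC9 parental (the subline comparison) and shHSF1 against shNTC (the knockdown comparison). Nothing in the labels tells separate cultures from repeat libraries of 1 culture, so each p-value speaks of the spread between these libraries, possibly a technical one.

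Keratins form intermediate filaments, the cables that give epithelial cells mechanical strength, and each filament needs an acidic type I keratin paired with a basic type II keratin. KRT8 and KRT18 are the primary pair of simple, single-layered epithelia, joined in many glandular tissues by type II KRT7 and type I KRT19. KRT17 and KRT15 are type I keratins of basal cells in stratified and pseudostratified epithelia, and KRT17 is also induced in injured skin. KRT10 is the type I keratin of suprabasal epidermis, KRT80 is a type II keratin of differentiating epithelia, and KRT81 and KRT86 are type II keratins of the hair shaft. The type II genes lie in 1 cluster on chromosome 12 and the type I genes in 1 cluster on chromosome 17, except KRT18, which lies beside KRT8 on chromosome 12.

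HSF1, the knockdown target, fell from 181.0 ± 3.80 CPM (SD, n = 2) in shNTC to 14.5 ± 1.47 in shHSF1, a 12.2-fold lower level (log2 fold change -3.61 ± 0.08 SE, edgeR adjusted p = 2.66e-08). CPM here are read counts scaled to a common library size, with sizes adjusted by TMM, a correction for differences in composition, over all 8 libraries. HSF1 was at 48.5 ± 2.16 CPM in PC9 parental and 53.6 ± 1.33 in PC9-BrM3 (log2 difference 0.15 ± 0.14, adjusted p = 0.531). Libraries held 33550140 to 56715336 counts, so a count of 0 allows up to 0.0529 to 0.0894 CPM, taking 3 counts as the limit. The PC9-BrM3 replicates stood apart from each other: their counts differed with a chi-square per degree of freedom of 335, against 12 to 27.7 for the other 3 pairs. EPCAM and CDH1, which mark epithelial cells, were at 260 to 568 CPM in every library, while NKX2-1, the lineage factor of lung adenocarcinoma, was at 0.196 CPM or less. The 7 lung adenocarcinoma markers summed to 13.1 to 16.6 CPM per library in PC9 parental and to 0.539 to 2.95 CPM in the other groups, nearly all of it SFTPB in the parental libraries. SFTPB, a surfactant protein gene, was called lower in the subline comparison (13.6 against 2.11 CPM, adjusted p = 0.0127) and in the knockdown (0.747 against 0.0689 CPM, adjusted p = 0.00911), and FOXA2, at 0.726 CPM or less, was called lower in the subline comparison (adjusted p = 0.0153). The summed level of 7 fibroblast markers was 0.0957 CPM or less, and PTPRC, the pan-leukocyte marker, was at 0.0770 CPM or less. The 6 leukocyte markers together came to 0.932 to 2.21 CPM per library. Among the 3 of them tested in the knockdown only LYZ was called, lower at 1.05 against 0.240 CPM (edgeR adjusted p = 0.00122). Of the other marker lists, the endothelial and neural lists were not near 0, and in each of them 1 gene held nearly all of the sum: CDH5 (18.7 to 55.3 CPM) of the endothelial list and MBP (95.7 to 161 CPM) of the neural list. CDH5 fell in both comparisons, from a mean of 41.0 to 21.5 CPM in the knockdown (edgeR adjusted p = 0.000503) and from 53.2 to 28.9 CPM in the subline comparison (adjusted p = 0.048). VWF, the other endothelial marker tested, was called higher in the knockdown, at 0.359 against 0.742 CPM (adjusted p = 0.0375), and 3 of the 5 endothelial markers had no count in the transduced libraries. MBP fell 1.25-fold in the knockdown comparison (adjusted p = 0.0024). Over all genes tested, 22.2% were called higher and 23.5% lower in the knockdown comparison, and 3.87% and 3.27% in the subline comparison. The part of these marker genes in the keratin results was not tested.

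The 10 keratins took up 0.258% and 0.282% of all counts in the PC9 parental libraries and 0.387% and 0.268% in those of PC9-BrM3. The share was 0.570% and 0.536% for shNTC and 0.727% and 0.751% for shHSF1, and within each group the 95% exact binomial intervals of the replicates did not overlap. In each library 88.7% to 95.1% of these counts came from the simple keratins KRT7, KRT8, KRT18 and KRT19. Levels per kilobase of exon set genes beside each other only roughly. The length is that of all annotated exons of a gene, from 1929 bases for KRT81 to 7069 for KRT15, rather than of the transcript present. Reads that fit more than 1 gene can also be lost unequally. On this scale KRT18 led in PC9 parental at 263.4 ± 16.3 CPM per kb. KRT19 (175.3) and KRT8 (164.4), whose libraries overlapped, followed, and then KRT7 (119.7). Well below these came KRT80 (17.0 CPM per kb), KRT81 (9.45), KRT15 (4.85) and KRT10 (3.75). KRT86 was at 0.150 CPM per kb and KRT17 had no count.

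The order of the minor keratins differed among the groups, on the same CPM per kb scale and with the same limits. In PC9-BrM3 KRT18 (275.1) and KRT19 (257.5) overlapped at the top, and KRT80 (36.5) overlapped KRT81 (33.1). In shNTC KRT19 (485.8) stood above KRT18 (333.4), KRT7 (315.6) and KRT8 (282.4), and KRT81 (152.5) now stood above KRT80 (40.4). In shHSF1 KRT18 (533.6) was again the highest, KRT19 (447.1) and KRT8 (429.8) overlapped, KRT81 reached 243.3, and KRT17 (28.1) stood above KRT10 (5.52) and KRT15 (3.45). KRT81 was thus present at 0.0552 to 0.0600 of the per-kb level of KRT8 in PC9 parental, at 0.143 to 0.163 of it in PC9-BrM3, and at 0.527 to 0.606 in the 4 transduced libraries. For the keratins followed here, summed type II was 0.668 to 0.835 of summed type I per kb in the untransduced libraries. The ratio was 0.922 to 1.05 in the transduced ones. These sums leave out the other type I keratins (235 to 766 CPM per library) and the other type II keratins (30.5 to 108 CPM). Whether the whole classes came closer to equal was not tested. Lane, vector, puromycin and doxycycline cannot be told apart between the sets.

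**Figure D1:**
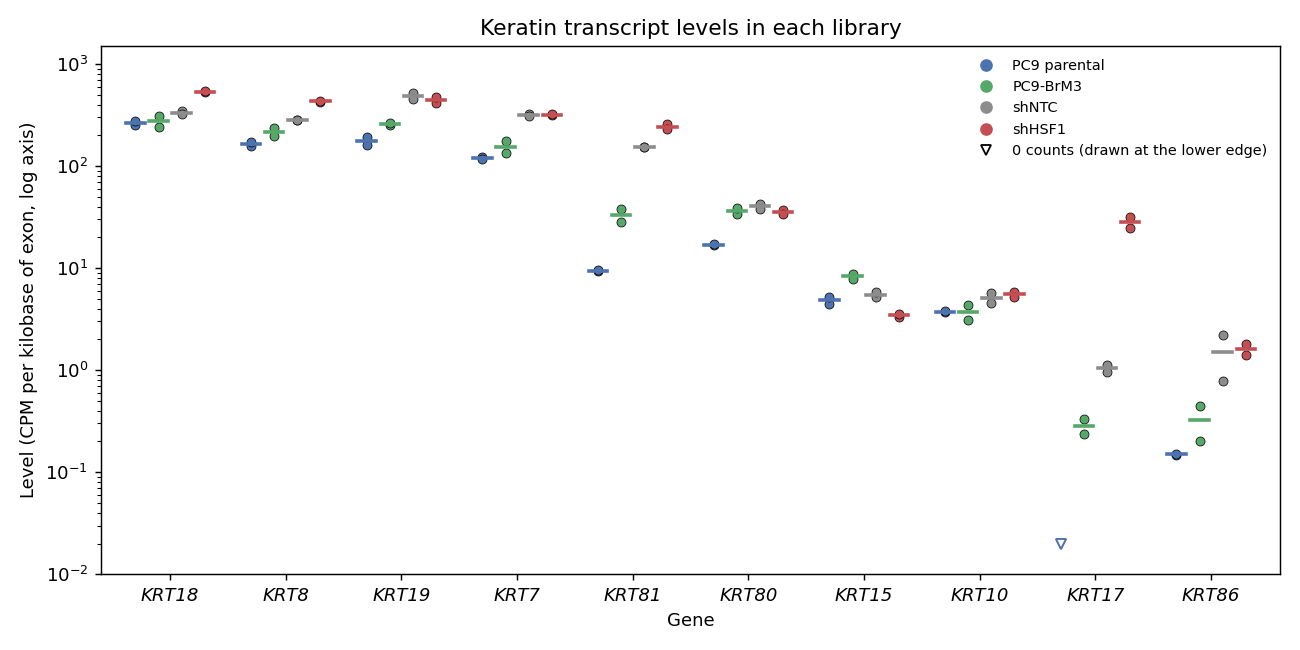
Levels of the 10 keratins in each of the 8 libraries, in CPM per kb of exon on a log axis, by group. The simple keratins KRT7, KRT8, KRT18 and KRT19 sit highest in every group, and KRT17 goes from no count in PC9 parental to 28.1 CPM per kb in shHSF1.

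In the knockdown comparison 4 of the 10 keratins rose (KRT17, KRT18, KRT8 and KRT81) and 1 fell (KRT15), with a median log2 fold change of 0.11 over the 10. Of all 16840 genes tested there, 45.7% passed edgeR's adjusted p of 0.05, 22.2% higher and 23.5% lower, with a median of 0.0062. The 5 calls of 10 are near that background. The shHSF1 and shNTC libraries did not overlap for 6 of the 10 keratins, against 73.2% of all genes. In the subline comparison 4 of the 10 rose (KRT81, KRT80, KRT17 and KRT15) and 0 fell, with a median of 0.68. KRT17, with 0 parental counts, passed the filter on low counts only through PC9-BrM3, so it could only come out higher. Of 17372 genes tested there, 7.14% passed, 3.87% higher and 3.27% lower, with a median of 0.013. The libraries did not overlap for 8 of the 10, all higher in PC9-BrM3, against 59% of all genes. Leaving out a library leaves its group with 1, which is then assumed to vary like the pair of the other group. The subline count rests on single libraries: it was 2 without PC9 parental replicate 1 or without replicate 2, 6 without PC9-BrM3 replicate 1 and 8 without PC9-BrM3 replicate 2.

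**Figure D2:**
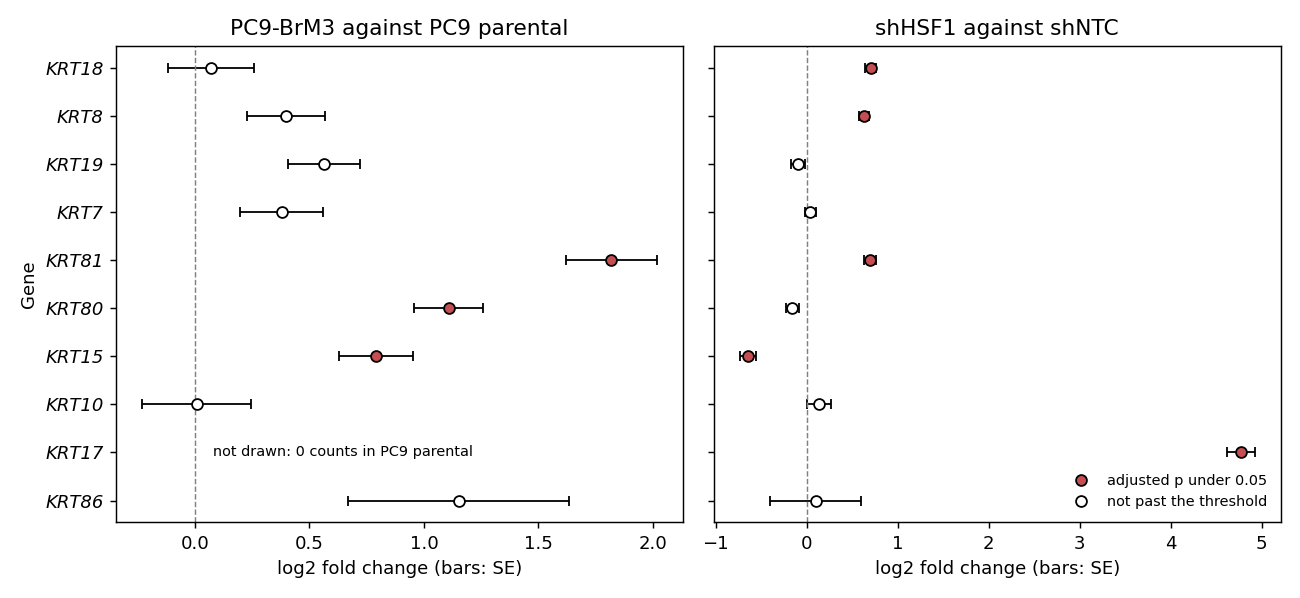
Log2 fold change of each keratin in the subline comparison (left) and the knockdown comparison (right), with standard errors from edgeR. Filled points passed the threshold: KRT81, KRT80 and KRT15 on the left, with KRT17 not drawn for want of a parental count, and KRT18, KRT8, KRT81, KRT15 and KRT17 on the right.

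Among the simple keratins, the primary pair rose in the knockdown comparison. KRT8 (ENSG00000170421, GRCh37 chr12:53290977-53343738, minus strand) was at 1416 and 1411 CPM in the shNTC libraries and at 2117 and 2185 CPM in the shHSF1 libraries. Its partner KRT18 (ENSG00000111057, chr12:53342655-53346685, plus strand) was at 1101 and 1045 CPM in shNTC and at 1691 and 1744 CPM in shHSF1. For both genes every shHSF1 library lay above both shNTC libraries, and the replicates lay close together. KRT8 rose 1.55-fold (log2 fold change 0.63 ± 0.06, edgeR adjusted p = 1.7e-05) and KRT18 rose 1.63-fold (0.70 ± 0.06, adjusted p = 1.23e-05). The per-kb ratio of KRT8 to KRT18 was 0.827 and 0.868 in shNTC and 0.805 and 0.806 in shHSF1.

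Neither gene of the pair passed the test in the subline comparison. KRT8 was at 778.7 and 866.5 CPM in PC9 parental and at 1173 and 981.5 CPM in PC9-BrM3. KRT18 was at 810.6 and 884.6 CPM in PC9 parental and at 1003 and 767.3 CPM in PC9-BrM3. The KRT8 libraries did not overlap, while for KRT18 the PC9-BrM3 replicates lay on either side of the parental ones. The log2 differences were 0.40 ± 0.17 for KRT8 (adjusted p = 0.215) and 0.07 ± 0.19 for KRT18 (adjusted p = 0.833). With the spread taken from the parental pair alone, leaving out PC9-BrM3 replicate 1 or replicate 2 brought KRT8 past the threshold (log2 0.26, adjusted p = 0.0318, and 0.51, adjusted p = 0.000522), and the KRT18 difference was -0.14 without PC9-BrM3 replicate 1 and 0.24 without replicate 2. The per-kb ratio of KRT8 to KRT18 was 0.618 and 0.630 in PC9 parental and 0.751 and 0.822 in PC9-BrM3, with no overlap.

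KRT7 and KRT19, the other simple pair, did not pass the knockdown test. KRT7 (ENSG00000135480, chr12:52626304-52645970) was at 1318 and 1265 CPM in shNTC and at 1290 and 1323 CPM in shHSF1. KRT19 (ENSG00000171345, chr17:39679869-39684560) was at 1207 and 1063 CPM in shNTC and at 977.5 and 1111 CPM in shHSF1. Both genes overlapped between the groups, with log2 differences of 0.04 ± 0.06 (edgeR adjusted p = 0.612) and -0.10 ± 0.08 (adjusted p = 0.369). The standard error of KRT7 was about those of KRT8 and KRT18, and that of KRT19 was larger.

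In the subline comparison both stood higher in PC9-BrM3 without passing. KRT7 was at 500.6 and 478.9 CPM in PC9 parental and at 718.9 and 547.2 CPM in PC9-BrM3. KRT19 was at 372.6 and 446.4 CPM in PC9 parental and at 589.5 and 613.6 CPM in PC9-BrM3. The libraries did not overlap for either gene. The log2 differences were 0.38 ± 0.18 for KRT7 (adjusted p = 0.263) and 0.56 ± 0.16 for KRT19 (adjusted p = 0.0941). KRT19 passed without PC9-BrM3 replicate 1 (adjusted p = 0.000114) or replicate 2 (adjusted p = 0.00106), where the spread again comes from the parental pair alone. It also passed with all 8 libraries in 1 fit (adjusted p = 0.0192) and with no filter on low counts (adjusted p = 0.0424), and KRT7 passed without PC9-BrM3 replicate 2 (log2 0.55, adjusted p = 0.000139).

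KRT8 and KRT18 have many processed copies elsewhere in the genome, which bears on how their reads were counted. Of the distinct 50-base words of their coding sequences (GENCODE v29 transcripts), 45.6% of those of KRT8 and 38.8% of those of KRT18 occur in another gene's transcript, against 2.1% for KRT19 and 1.3% for KRT7. The 51 annotated KRT8 pseudogenes held 4.86% to 6.51% as many counts as KRT8 in the 4 groups, and the 67 KRT18 pseudogenes 3.64% to 5.11% as many as KRT18. With pseudogene counts added, the knockdown differences stayed at 0.63 ± 0.06 for KRT8 and 0.70 ± 0.06 for KRT18. The pseudogenes KRT8P3 and KRT8P33 themselves moved with KRT8 in the knockdown comparison, from 37.2 ± 1.99 to 58.2 ± 3.73 CPM (log2 0.67 ± 0.08, edgeR adjusted p = 0.000102) and from 14.6 ± 0.94 to 22.3 ± 1.24 CPM (0.64 ± 0.10, adjusted p = 0.000598). Whether these counts are transcripts of the copies or reads of KRT8 was not tested.

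KRT17 (ENSG00000128422, chr17:39775689-39781094, minus strand) showed the largest knockdown difference of the 10 keratins. Its nearest relatives in coding sequence are the neighbouring basal keratins KRT14 and KRT16, with 78.7% and 72.8% of aligned bases identical, against 69.8% for KRT15 and 68.2% for KRT19. Because reads of KRT17 can be told from those of KRT14 only where the sequences differ, the 90-base stretches of their coding strands with the fewest and the most differences are shown, with differing bases in capitals. The most alike stretch (3 differing bases) covers coding bases 589 to 678 of KRT17 and 682 to 771 of KRT14.
KRT17: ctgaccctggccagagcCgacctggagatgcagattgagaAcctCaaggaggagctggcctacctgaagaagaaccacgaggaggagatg
KRT14: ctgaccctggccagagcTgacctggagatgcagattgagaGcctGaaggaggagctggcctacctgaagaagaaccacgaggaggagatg
The least alike stretch (25 differing bases) covers coding bases 358 to 447 of KRT17 and 451 to 540 of KRT14.
KRT17: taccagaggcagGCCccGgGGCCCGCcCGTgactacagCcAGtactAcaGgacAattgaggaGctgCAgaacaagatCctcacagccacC
KRT14: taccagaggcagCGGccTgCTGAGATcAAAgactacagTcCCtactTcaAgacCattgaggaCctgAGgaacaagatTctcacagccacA
Over the whole coding sequence, 17.2% of the 50-base words of KRT17 occur in another gene, mostly in its pseudogenes. The share was 1.3% for KRT16, and no higher for KRT14.

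KRT17 had 0 counts in both PC9 parental libraries and 32 and 28 counts in the PC9-BrM3 libraries. It had 137 and 90 counts in shNTC, or 2.83 and 2.45 CPM, and 3134 and 2215 counts in shHSF1, or 80.5 and 62.1 CPM. Every group of libraries lay apart from the others. The shHSF1 level was 27.2-fold above shNTC (log2 fold change 4.77 ± 0.15, edgeR adjusted p = 6.63e-08), and the difference held in all 12 alternatives run, from 4.35 with pseudogenes added to 4.95 with 1 library left out.

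Against PC9 parental, PC9-BrM3 was at 0.654 CPM (60 counts over both libraries, 95% exact binomial interval 0.499 to 0.842, counting error only, on library totals without TMM), where 0 parental counts allow up to 0.0276 CPM over the group. From the low end of that interval, KRT17 was at least 18.1-fold higher in PC9-BrM3 (edgeR adjusted p = 0.0163), at a level under 1 CPM. This call depends on how copies are counted. The 8 KRT17 pseudogenes held 77 counts in the parental group against 58 in PC9-BrM3. With these added the log2 difference was 0.98 ± 0.39 (adjusted p = 0.193), which left 3 keratins higher in the subline. In shHSF1 the same pseudogenes held 126 counts against 5349 for KRT17.

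The counting command gives no option to keep reads that fit more than 1 gene, so KRT17 can lose reads: 1021 of the 2537 exonic bases of KRT17 (40.2%) are also annotated as exon of JUP, the desmosome protein plakoglobin, on the same strand. JUP had 58531 counts over the 8 libraries. It rose from 214.9 ± 13.3 CPM in shNTC to 324.2 ± 24.7 CPM in shHSF1 (log2 fold change 0.62 ± 0.07, edgeR adjusted p = 9.27e-05). The part that the shared bases had in either value was not tested.

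KRT15 (ENSG00000171346, chr17:39669995-39678781, minus strand), a keratin of basal cells and of hair follicle stem cells, was the only one of the 10 called lower in the knockdown comparison. It was at 36.4 and 41.4 CPM in shNTC and at 23.5 and 25.3 CPM in shHSF1. Both shHSF1 libraries lay below both shNTC libraries. KRT15 fell 1.57-fold (log2 fold change -0.65 ± 0.09, edgeR adjusted p = 0.000292). In the subline comparison it was at 31.6 and 36.9 CPM in PC9 parental and at 62.3 and 55.5 CPM in PC9-BrM3, again with no overlap. It rose 1.73-fold there (0.79 ± 0.16, adjusted p = 0.045), close to the threshold. The log2 difference was 0.67 (adjusted p = 0.56) without PC9 parental replicate 1, 0.89 (adjusted p = 0.312) without replicate 2 and 0.79 (adjusted p = 0.0526) with the replicate number as a block. Over the 8 libraries KRT15 ran against 8 of the 9 other keratins, with Pearson r from -0.706 with KRT17 to -0.308 with KRT19, and 0.154 with KRT80, computed on log2(CPM + 1) values that share lane and group.

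KRT10 (ENSG00000186395, chr17:38974369-38978847, minus strand), the suprabasal keratin, was low and passed neither test. It was at 7.86 and 8.05 CPM in PC9 parental against 9.27 and 6.59 CPM in PC9-BrM3. The shNTC libraries gave 12.1 and 9.58 CPM and the shHSF1 libraries 12.4 and 11.1 CPM. Libraries overlapped in both comparisons, with log2 differences of 0.13 ± 0.14 in the knockdown (edgeR adjusted p = 0.458) and 0.01 ± 0.24 in the subline comparison (adjusted p = 0.989). The sign of both turned under some of the alternatives. KRT10 shared no 50-base word of its coding sequence with another gene.

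KRT80 (ENSG00000167767, chr12:52562780-52585784, minus strand) was at 72.8 and 75.1 CPM in PC9 parental and at 147.6 and 169.6 CPM in PC9-BrM3. The groups lay far apart relative to the replicates. KRT80 rose 2.16-fold in the subline comparison (log2 fold change 1.11 ± 0.15, edgeR adjusted p = 0.0158), and leaving out PC9 parental replicate 1 or replicate 2 ended the call (adjusted p = 0.193 and 0.146) with log2 differences of 1.07 and 1.12. It was at 186.4 and 165.2 CPM in shNTC and at 162.4 and 147.9 CPM in shHSF1. The shHSF1 libraries lay just below the shNTC ones, and the log2 difference of -0.16 ± 0.08 did not pass (adjusted p = 0.12), except without shNTC replicate 2 (-0.25 ± 0.08, adjusted p = 0.0348) and with the replicate number as a block (-0.16 ± 0.05, adjusted p = 0.0329).

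KRT81 (ENSG00000205426, chr12:52679697-52685318, minus strand) and KRT86 (ENSG00000170442, chr12:52643084-52702947, plus strand) are near copies, with 90.1% of aligned coding bases identical. Of their 50-base coding words, 49.2% of those of KRT81 occur in KRT86 and 51.2% of those of KRT86 in KRT81. The counting used strand, and the genes lie on opposite strands, but reads from the stretches they share can align to either. The first stretch printed, coding bases 61 to 150, is identical in both. The second, coding bases 1237 to 1326, is the 90-base stretch with the most differences, 19, which are in capitals.
KRT81 and KRT86: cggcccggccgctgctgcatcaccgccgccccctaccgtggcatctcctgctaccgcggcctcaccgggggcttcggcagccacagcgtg
KRT81: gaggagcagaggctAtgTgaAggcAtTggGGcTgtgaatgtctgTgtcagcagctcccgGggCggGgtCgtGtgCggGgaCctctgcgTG
KRT86: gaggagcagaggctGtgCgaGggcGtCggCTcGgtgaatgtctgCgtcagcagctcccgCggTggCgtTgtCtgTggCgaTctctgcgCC
Between KRT81 and KRT86, a read of the first stretch could come from either, while differing bases of the second tell them apart. Other genes share words too: 11.6% of the KRT81 words occur in KRT87P and 8.0% in KRT83. Whether either stretch occurs in such genes was not tested.

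KRT81 and KRT17 were the only keratins of the 10 called higher in both comparisons. It was at 18.0 and 18.4 CPM in PC9 parental and at 73.6 and 54.0 CPM in PC9-BrM3. It was at 295.5 and 292.7 CPM in shNTC and at 494.6 and 444.0 CPM in shHSF1. The groups lay apart at each step. KRT81 rose 3.53-fold in the subline comparison (log2 fold change 1.82 ± 0.20, edgeR adjusted p = 0.00945) and 1.62-fold in the knockdown comparison (0.70 ± 0.07, adjusted p = 2.19e-05). Both calls held in every alternative run, with adjusted p of at most 0.0234 and 0.0128.

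KRT86 held far fewer counts than KRT81. It was at 0.354 and 0.363 CPM in PC9 parental against 1.07 and 0.481 CPM in PC9-BrM3. The shNTC libraries gave 5.26 and 1.88 CPM and the shHSF1 libraries 4.34 and 3.33 CPM. The shNTC replicates lay on either side of the shHSF1 ones. The knockdown difference was 0.10 ± 0.50 on the log2 scale (adjusted p = 0.899), and it was 1.06 (adjusted p = 0.00938) without shNTC replicate 1 and -0.44 (adjusted p = 0.147) without shNTC replicate 2. The subline difference was 1.15 ± 0.48 (adjusted p = 0.21), and 1.57 (adjusted p = 0.003) without PC9-BrM3 replicate 2. Added together, KRT81 and KRT86 differed by 0.69 ± 0.07 in the knockdown (edgeR adjusted p = 2.44e-05) and by 1.81 ± 0.20 in the subline comparison (adjusted p = 0.00982).

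**Figure D3:**
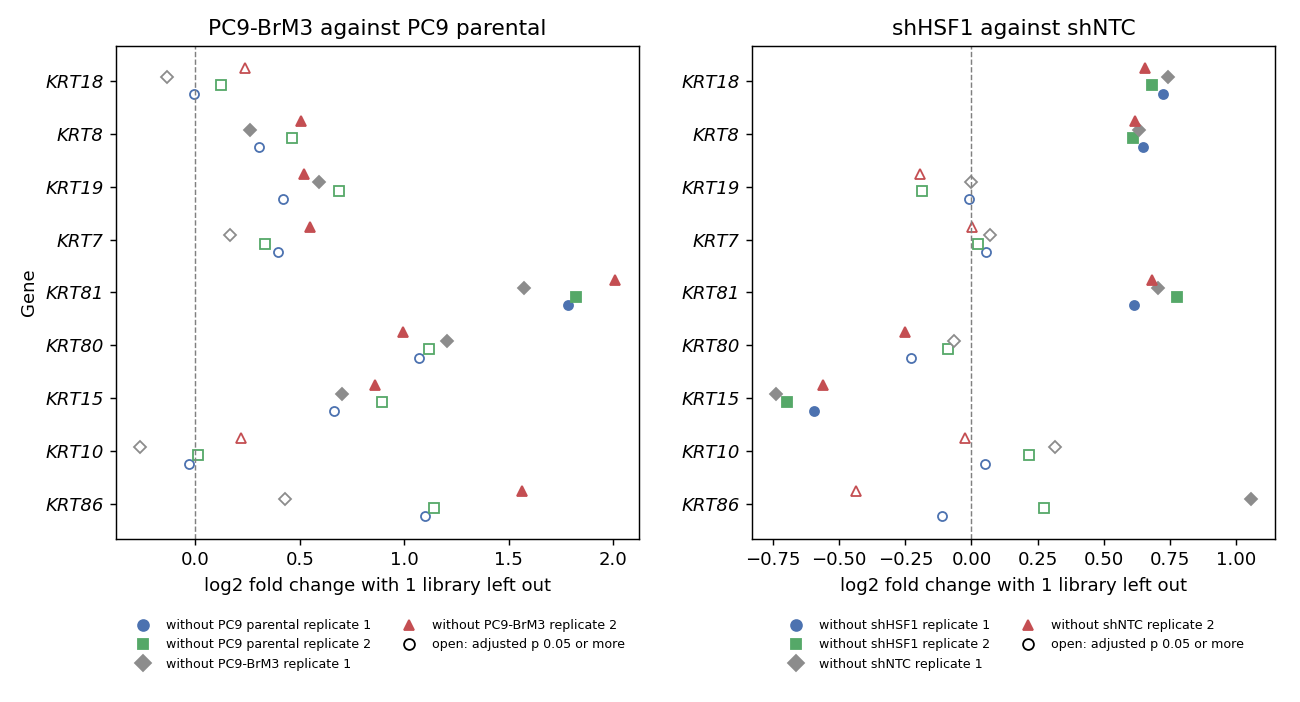
Log2 fold change of 9 keratins with each library left out in turn, in the subline comparison (left) and the knockdown comparison (right). Filled points have an edgeR adjusted p under 0.05: KRT81 stays filled throughout on both sides, KRT8, KRT18 and KRT15 stay filled on the right, and KRT86 on the right runs from -0.44 to 1.06.

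The other keratins were taken from lists of 24 type I and 21 type II genes. In the knockdown comparison 5 of 7 tested type I genes rose and 1 fell (median log2 1.29), and 5 of 9 tested type II genes rose and 0 fell (median 0.83). Of all genes tested there, 22.2% rose and 23.5% fell. KRT9, a keratin of palm and sole skin, went from 0.557 ± 0.058 to 7.13 ± 1.10 CPM (13.1-fold, edgeR adjusted p = 1.17e-06), and KRT34, a hair keratin, from 4.74 ± 1.70 to 41.5 ± 8.34 CPM (8.74-fold, adjusted p = 0.000308). KRT16, a keratin of injured and hyperproliferative skin, went from 7.90 ± 0.09 to 19.0 ± 0.61 CPM (2.44-fold, adjusted p = 9.09e-06). It shares 23.9% of its 50-base coding words with other genes, and its pseudogenes went the other way. KRT16P2 fell from 7.03 ± 2.06 to 1.04 ± 0.32 CPM (edgeR adjusted p = 3.53e-05), and KRT16P1 and KRT16P3, under 1 CPM, were also called lower. KRT16 was not tested with the counts of its pseudogenes added. KRT5, the type II partner of basal cells, went from 42.3 ± 3.83 to 86.4 ± 0.12 CPM (2.08-fold, adjusted p = 3.89e-06). KRT6A and KRT6B, type II keratins induced in wounds, rose 1.84-fold and 1.37-fold, from 2.85 and 7.44 CPM. KRT14, the usual partner of KRT5, was called higher (adjusted p = 0.0318) but stayed at 0.350 ± 0.059 CPM in shHSF1, and KRT3 (adjusted p = 0.00789) at 0.545 ± 0.137. KRT14 and KRT3 passed the filter on low counts only through shHSF1, so within the 5 type I and 5 type II rises they could only come out higher. KRT23 fell, from 116.8 ± 5.32 to 84.3 ± 2.84 CPM (1.36-fold, adjusted p = 0.000357). With 1 library left out, 3 to 4 type I genes rose and 2 fell, and 3 to 5 type II genes rose, 3 type I genes without shHSF1 replicate 1 and 3 type II genes without shHSF1 replicate 1 or shNTC replicate 1.

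In the subline comparison 3 of 7 tested type I genes and 4 of 8 tested type II genes rose, and 0 fell in either list (medians 1.07 and 1.29). Of all genes tested there, 3.87% rose and 3.27% fell. KRT23 went from 48.8 ± 0.94 CPM in PC9 parental to 317.3 ± 12.8 CPM in PC9-BrM3 (6.54-fold, edgeR adjusted p = 0.00239), and KRT13, a keratin of internal stratified epithelia, from 178.4 ± 12.4 to 380.7 ± 63.6 CPM (2.15-fold, adjusted p = 0.0246). KRT5 went from 22.0 ± 0.77 to 55.1 ± 1.87 CPM (2.51-fold, adjusted p = 0.00889) and KRT4, the partner of KRT13, from 0.394 ± 0.043 to 6.46 ± 3.48 CPM (16.4-fold, adjusted p = 0.0121). KRT14, KRT75 and KRT1 were also called higher, at 0.780, 1.41 and 0.383 CPM in PC9-BrM3, and KRT1 had 0 parental counts. KRT14 had 2 and 2 counts in PC9 parental against 43 and 25 in PC9-BrM3. KRT14 and KRT1 passed the filter on low counts only through PC9-BrM3, so in the counts above they could only come out higher. KRT23 thus rose in the subline and fell in the knockdown comparison, as did KRT15. The counts were 1 type I and 1 type II gene without PC9 parental replicate 1, 2 and 2 without PC9 parental replicate 2, 4 and 5 without PC9-BrM3 replicate 1, and 6 and 6 without PC9-BrM3 replicate 2.

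Read in order along chromosome 17, the last 4 genes of the type I cluster, KRT9, KRT14, KRT16 and KRT17 (from 39722096 to 39781094), were each called higher in the knockdown comparison. The KRT14 call rests on 6 and 0 counts in shNTC against 12 and 14 in shHSF1. The 3 genes before them, KRT13, KRT15 and KRT19, were not called higher: KRT13 differed by -0.15 ± 0.07 (edgeR adjusted p = 0.097), KRT15 fell and KRT19 did not pass. Nearer the start of the cluster KRT34 (log2 fold change 3.13 ± 0.26) and KRT32 (0.78 ± 0.27) were also called higher. KRT23 fell there and KRT10 did not pass. On chromosome 12 the neighbours KRT8 and KRT18, at the end of the type II cluster, both rose, while KRT80, KRT7 and KRT86 at its other end did not pass and KRT81 beside them rose. Between the ends KRT6B, KRT6A, KRT5, KRT3 and KRT78 were called higher, and KRT83, KRT85, KRT75 and KRT6C did not pass. These stretches were chosen after the values were seen, and no test was made of position.

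**Figure D4:**
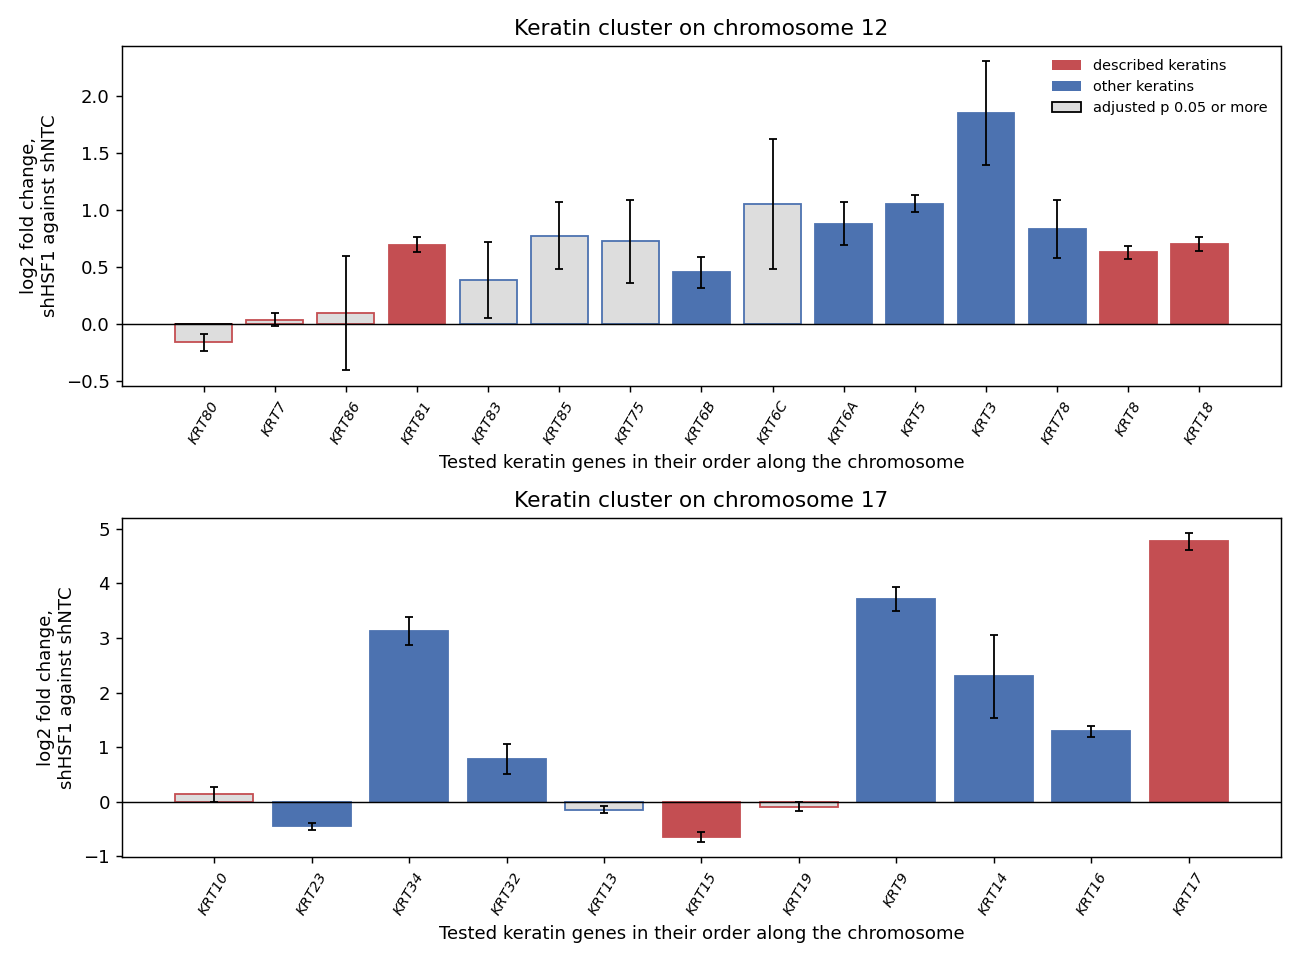
Log2 fold change of the keratin genes tested in the knockdown comparison, in the order in which they lie in the type I cluster on chromosome 17 and the type II cluster on chromosome 12, for shHSF1 against shNTC, with standard errors from edgeR. The last 4 type I genes, KRT9 to KRT17, lie between 1.29 and 4.77 in the knockdown comparison, while KRT13, KRT15 and KRT19 before them lie between -0.65 and -0.10. KRT34 and KRT32, nearer the start of that cluster, lie at 3.13 and 0.78.

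Desmosomes tie keratin filaments to the cell surface. Of 12 tested desmosome and plakin genes, 5 rose and 3 fell in the knockdown comparison (median log2 0.02), where 22.2% of all genes rose and 23.5% fell. In the subline comparison 0 rose and 1 fell (median -0.08), where 3.87% of all genes rose and 3.27% fell. PKP2, a plakophilin of the desmosome plaque, went from 65.1 ± 6.67 to 130.5 ± 0.28 CPM (2.04-fold, edgeR adjusted p = 6.15e-06), and PKP4 and DST rose 1.35-fold and 1.38-fold beside JUP. DSG2, a desmosomal cadherin, went from 259.1 ± 8.74 to 144.7 ± 0.90 CPM in the knockdown comparison (1.76-fold lower, adjusted p = 3.59e-06) and from 383.2 ± 15.6 to 221.5 ± 0.79 CPM in the subline comparison (1.72-fold lower, adjusted p = 0.0308). PERP fell 1.29-fold and PLEC, the linker plectin, 1.19-fold in the knockdown comparison. The single subline call was absent without PC9 parental replicate 1 or replicate 2, and 5 of these genes rose and 5 fell without PC9-BrM3 replicate 1.

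Hemidesmosomes anchor keratin filaments to the basement membrane. Of 9 tested genes of that list 2 rose and 6 fell in the knockdown (median log2 -0.25), where 22.2% of all genes rose and 23.5% fell. In the subline comparison 0 rose and 4 fell (median -0.56), where 3.87% of all genes rose and 3.27% fell. LAMA3 fell 1.41-fold and 2.69-fold, and COL17A1 fell 1.54-fold and 2.58-fold, in the knockdown and then the subline comparison (edgeR adjusted p = 0.000442 and 0.00889 for LAMA3, 0.00191 and 0.0246 for COL17A1). LAMB3, a laminin chain, rose from 310.7 ± 7.50 to 450.2 ± 56.0 CPM in the knockdown comparison (adjusted p = 0.000349). ITGA6 fell 1.28-fold in the knockdown comparison (adjusted p = 0.000862) and ITGB4 fell 2.14-fold in the subline comparison (adjusted p = 0.0261). The 4 subline calls were 1 without PC9 parental replicate 1 or replicate 2, 6 without PC9-BrM3 replicate 1 and 7 without replicate 2. In the knockdown comparison the number lower was 4 without shHSF1 replicate 2, with 2 higher.

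Of 8 tested intermediate filament genes outside the keratins, 2 rose and 4 fell in the knockdown comparison (median log2 -0.21), and none passed in the subline comparison (0 higher, 0 lower, median 0.63; 8 rose without PC9-BrM3 replicate 1 and 5 without PC9-BrM3 replicate 2). Over all genes, 3.87% rose and 3.27% fell in the subline comparison, and 22.2% rose and 23.5% fell in the knockdown comparison. In the latter VIM, the vimentin of mesenchymal cells, went from 23.3 ± 4.08 to 42.6 ± 2.64 CPM (1.85-fold, edgeR adjusted p = 0.000216). LMNB2, a nuclear lamin, rose 1.18-fold there. NES, INA and SYNM, which are known from neural and muscle cells, fell 2.67-fold, 1.98-fold and 2.10-fold, and LMNB1 fell 1.18-fold. Without shNTC replicate 2, 1 of these genes rose and 5 fell.

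Among 9 keratin regulators and modifiers 1 rose and 4 fell in the knockdown comparison and 0 passed in the subline comparison, where without PC9-BrM3 replicate 1 or 2 the number that rose was 5 or 2. Over all genes, 3.87% rose and 3.27% fell in the subline comparison, and 22.2% rose and 23.5% fell in the knockdown comparison. In the latter SFN, the 14-3-3 sigma protein that binds KRT17, went from 206.0 ± 4.77 to 524.3 ± 25.6 CPM (2.59-fold, edgeR adjusted p = 2.31e-07). PADI3, which modifies hair proteins, fell 3.39-fold to 5.53 CPM, TGM2, a transglutaminase, fell 1.48-fold to 522.9 CPM, and PNN and TCHP fell 1.25-fold and 1.39-fold. Without shNTC replicate 1 the number that rose was 3, and without shHSF1 replicate 2 it was 2.

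Of the transcription factors of basal and squamous cells, 4 of 9 tested rose and 3 fell in the knockdown comparison (median log2 0.04). In the subline comparison 2 of 10 rose and 1 fell (median 0.09). The shares over all genes were 22.2% higher and 23.5% lower in the knockdown, and 3.87% higher and 3.27% lower in the subline comparison. TP63, the master factor of basal cells, was near 0 throughout: it went from 0.565 ± 0.222 to 1.45 ± 0.38 CPM in the knockdown (edgeR adjusted p = 0.00968). TFAP2A, KLF5 and KLF4 rose 1.44-fold, 1.26-fold and 1.25-fold. GRHL3 and ZNF750, factors of epidermal differentiation, went in opposite directions in the comparisons: GRHL3 fell 1.85-fold in the knockdown and rose 2.41-fold in the subline comparison, and ZNF750 fell 2.59-fold and rose 11.9-fold, from 0.543 ± 0.017 to 6.48 ± 1.89 CPM. OVOL1 fell 1.36-fold in the knockdown comparison, and SOX2 was called lower in PC9-BrM3 at 0.629 CPM or less. Without shNTC replicate 2 the knockdown counts were 2 higher and 3 lower, and without shHSF1 replicate 1, shHSF1 replicate 2 or shNTC replicate 1 the number lower was 2. In the subline comparison 1 rose without either PC9 parental replicate, 5 rose and 2 fell without PC9-BrM3 replicate 1, and 3 rose and 3 fell without PC9-BrM3 replicate 2.

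Genes of the cornified envelope, the end product of squamous differentiation, stayed near 0: the 14 matched genes summed to 2.18 to 3.58 CPM per library. Of 4 tested genes, 0 were higher and 1 lower in the knockdown comparison, where 22.2% of all genes rose and 23.5% fell. In the subline comparison 1 of 5 was higher and 1 lower, where 3.87% of all genes rose and 3.27% fell. Markers of epithelial identity summed to 1535 to 1725 CPM in every library. Of these 8, 2 rose and 3 fell in the knockdown comparison, against 22.2% and 23.5% of all genes. CLDN4 and CDH1 rose 1.66-fold and 1.33-fold there, and ESRP1, MUC1 and ELF3 fell 1.53-fold, 2.07-fold and 1.17-fold. In the subline comparison 1 rose and 0 fell, against 3.87% and 3.27% of all genes. MUC1 rose 4.64-fold in the subline comparison (edgeR adjusted p = 0.0159), from 13.1 ± 1.64 to 60.3 ± 23.3 CPM.

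Across the 8 libraries, the genes whose log2(CPM + 1) values followed KRT17 most closely, of 16201 compared, included KRT34 (Pearson r = 0.9943) and GLI2 (0.9937). KRT34 went from 1.56 and 1.01 CPM in PC9 parental to 47.4 and 35.6 CPM in shHSF1. The closest to KRT8 were BUD23 (0.9928), DKK1 (0.9909) and ADM (0.9898), and to KRT18 FAHD1 (0.9944), DHCR7 (0.9910) and COQ10B (0.9868). The closest to KRT81 were CILP2 (0.9974), EPHB4 (0.9952) and BOK (0.9949). Among the keratins themselves r was 0.953 for KRT8 with KRT18, 0.960 for KRT7 with KRT19 and 0.977 for KRT7 with KRT81. Other pairs were as high, such as KRT18 with KRT17 (0.958) and KRT19 with KRT81 (0.964). Over all keratin pairs r ran from -0.706 (KRT17 with KRT15) to 0.977. Libraries of a group share lane, line and treatment, so these values describe 4 groups of 2 rather than 8 independent points.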

How the data were processed

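RNA-seq of 8 libraries was used. The deposited files give unnormalized read counts. Per the file headers, the authors obtained these counts with featureCounts 1.6.1 over exons grouped by gene ID, reverse-stranded, on an Ensembl GRCh37 annotation. The command in the headers gives no option to count multi-mapping or ambiguous reads, so near-identical and overlapping genes can lose reads. Per the submitters' processing notes, Trim Galore, HISAT2 and DESeq2 are also named, without versions. Symbols were found for 52181 of 63677 gene IDs (81.9%), and for all 10 keratins.

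The 4 libraries of a comparison were fitted on their own in R 4.3.3 with edgeR 4.0.16. Low genes were dropped by filterByExpr (at least 10 counts, 15 in total), and TMM factors were followed by the robust quasi-likelihood F test and Benjamini-Hochberg adjustment over all genes tested, with a threshold of 0.05. With 2 libraries a group the fit has 2 residual degrees of freedom, and an exact permutation test of a single value could not go below p = 0.333. All 10 keratins passed the filter in both comparisons. The test was also run on simulated counts, drawn with the same spread in both groups. That run does not cover the uneven spread of the subline comparison. Errors printed with ± after a CPM are SDs over 2 libraries, and those after a log2 fold change are standard errors.

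The keratins and all gene lists were chosen with earlier results of these data known. Named genes were all 10 keratins, HSF1, up to 4 genes of each other list per direction and comparison by smallest p among those called, the 3 genes with the highest correlation with KRT17, KRT8, KRT18 and KRT81, and pseudogenes or antisense genes named after a keratin. Some genes that the rule picks are not reported here. Coding sequences came from GENCODE v29 transcripts and were aligned with Biopython 1.88. Alternatives were DESeq2 1.42.0, upper-quartile and RLE factors, no filter, all 8 libraries in 1 fit, a replicate block, each library left out, pseudogenes added to their gene, and KRT81 with KRT86 added together.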

Additional observations from a re-analysis of the deposited data

How the results depend on the processing

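With 2 libraries a group, 1 library can decide a call, above all in the subline comparison, where the PC9-BrM3 replicates differ most. The knockdown calls of KRT17, KRT18, KRT8, KRT81 and KRT15 and the subline call of KRT81 held in the 12 alternatives run for each. Of the knockdown values recomputed, 113 kept their call and direction, 3 newly passed the threshold and 3 turned sign. For the subline comparison the numbers were 96, 8 and 9, and 6 values no longer passed.

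The number of keratins lower in the knockdown was 2 with the replicate block, and 1 to 2 with 1 library left out (the second is KRT80, with the block -0.16 ± 0.05, edgeR adjusted p = 0.0329). The number higher in the subline was 2 to 8 with 1 library left out. The replicate numbers do not pair the samples (correlation of deviations 0.0184 for the knockdown, -0.00876 for the subline). Under the replicate block the subline KRT15 call was lost (adjusted p = 0.0526, log2 difference 0.79) and the subline KRT10 difference turned to -0.014. That KRT10 difference was also -0.0077 with DESeq2, -0.014 with no filter, -0.000115 with RLE factors and -0.0036 with upper-quartile factors, and ran from -0.27 to 0.22 with 1 library left out (-0.028 without PC9 parental replicate 1, -0.27 without PC9-BrM3 replicate 1). The subline KRT18 difference ran from -0.14 to 0.24 (-0.0069 without PC9 parental replicate 1, -0.14 without PC9-BrM3 replicate 1), the knockdown KRT10 difference from -0.024 (without shNTC replicate 2) to 0.32 and the knockdown KRT86 difference from -0.44 to 1.06 (-0.11 without shHSF1 replicate 1, -0.44 without shNTC replicate 2). The cause was not tested.

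Over all genes, 7701 passed in the knockdown against 3873 with all libraries in 1 fit. In the subline comparison 1240 passed, against 3813 in 1 fit of all libraries, 2147 with DESeq2, 3159 with no filter, and 402 to 9228 with 1 library left out. Subline KRT17 rests on 60 counts against 0.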

Other observations

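Counts were also assigned to antisense genes and pseudogenes named after the keratins. KRT7-AS, antisense to KRT7, was at 0.814 to 2.26 CPM per library and passed neither test (edgeR adjusted p = 0.446 for the knockdown, 0.324 for the subline). KRT10-AS1, antisense to KRT10, was at 6.77 to 17.0 CPM per library and passed neither test (adjusted p = 0.929 and 0.702). KRT17P2 had 21 and 6 counts in the shHSF1 libraries and at most 1 count in each of the other 6, and KRT17P4, the pseudogene of KRT17 with the most counts, had 17 to 45 counts per library with no call in either comparison (adjusted p = 0.412 and 0.925). KRT87P, a pseudogene between KRT7 and KRT81, had 14 and 7 counts in shNTC and 33 and 27 in shHSF1 (log2 fold change 1.72 ± 0.38, adjusted p = 0.00439). It shares 11.6% of the 50-base coding words of KRT81, which also rose. Whether these few counts are reads of KRT81 was not tested.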
